A study of Mus musculus with 6 samples.

Results

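The cytochrome P450 (Cyp), UDP-glucuronosyltransferase (Ugt) and glutathione S-transferase (Gst) families are the main enzymes that modify and conjugate foreign chemicals, steroids and bile products in the liver. The members described here are the 147 protein-coding genes of the RefSeq annotation whose symbols place them in these families, with Ahr, Arnt, Ahrr and Por, out of 21887 protein-coding genes. They comprise 99 Cyp, 22 Ugt and 22 Gst genes and 4 other genes. Many lie in tandem clusters, so that genes with at most 100 kb between them were joined into 61 loci. Of these, 34 held a lone gene and 27 held the other 113 members. A peak was assigned to a gene when its midpoint lay inside the gene or within 10 kb of it, and was called a gene-end peak when its midpoint lay within 1 kb of either end.

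The data are CTCF ChIP-seq peak lists from Hepa-1c1c7 cells, a line derived from a mouse liver tumour, with a working aryl hydrocarbon receptor pathway. There were 2 untreated libraries (0 µM, the labelled control) and 2 chromium libraries from cells given 25 µM potassium chromate, a hexavalent chromium salt, for 90 min before fixation. The replicates are numbered 1 and 2 in each group, and the peaks of both number 1 libraries were called against input 1 and those of both number 2 libraries against input 2. Whether replicates were grown separately is not said in the labels. The p-values therefore measure only the spread between these libraries, which may be technical, and all groups share this tumour-derived line. Peak lists carry no expression values, so the liver identity of the cells could not be checked on marker genes.

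CTCF, a DNA-binding zinc finger protein, occupies insulators, domain boundaries and many promoters, and with cohesin it holds chromatin loops. P450 enzymes oxidise their substrates with electrons passed on by P450 oxidoreductase, the product of Por. Ugt and Gst enzymes then couple glucuronic acid or glutathione to the products. AHR, with its partner ARNT, binds the motif GCGTG at genes such as Cyp1a1, Cyp1a2 and Cyp1b1, and AHRR represses it.

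Untreated 1 had 11707 peaks and chromium 1 had 14881, against 4495 for untreated 2 and 1905 for chromium 2. The sources used here do not give the read depth behind them. List length differs between libraries, so shares of genes are set beside those of all protein-coding genes in the same list. Scores are the authors' own values, and each is given here as a percentile within its own list. Near-identical gene copies are common in these families, and the sources used here do not say how reads that match several copies were treated. Values at clustered genes are uncertain for that reason.

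Promoter sequence was at hand for 120 of the 147 members, from 250 bases before to 50 bases after a transcription start (RefSeq, GRCm38.p6, the same coordinates as mm10). Peaks near the members reached the promoters of 2 genes, and these are shown because they are the only genes where a peak and its sequence can be set side by side. The promoter of Gstm1, a mu class transferase (chr3:108017924-108018223, minus strand), was reached by a peak of untreated 1. The promoter of Parl, a mitochondrial rhomboid protease next to Cyp2ab1 (chr16:20302313-20302612, minus strand), was reached by peaks of untreated 1 and chromium 1. Capitals mark matches on either strand to CCNNNAGNNGGC, a loosened form of the known CTCF motif, or to GCGTG, the AHR motif, which reads CACGC on the other strand.
Gstm1: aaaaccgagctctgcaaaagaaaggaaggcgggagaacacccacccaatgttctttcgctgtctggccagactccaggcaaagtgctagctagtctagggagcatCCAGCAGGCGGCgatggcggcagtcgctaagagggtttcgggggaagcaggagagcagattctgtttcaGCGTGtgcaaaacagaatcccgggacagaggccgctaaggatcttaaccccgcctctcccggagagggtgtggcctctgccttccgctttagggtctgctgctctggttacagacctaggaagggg
Parl: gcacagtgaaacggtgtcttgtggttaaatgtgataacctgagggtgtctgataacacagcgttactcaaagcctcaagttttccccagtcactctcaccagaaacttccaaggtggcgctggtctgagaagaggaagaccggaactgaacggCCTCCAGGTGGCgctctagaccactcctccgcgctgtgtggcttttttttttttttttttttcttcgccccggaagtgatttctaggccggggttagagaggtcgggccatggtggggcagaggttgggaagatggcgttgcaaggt

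Each of these printed windows held 1 match to the CTCF letters, and each match lay inside the peaks. A second Gstm1 window in the same table (chr3:108017769-108018068), which the untreated 1 peak overlapped by 40 bases, held 0. The midpoint of the untreated 1 peak was 28 bp from the centre of the match at Gstm1. At Parl the midpoints of untreated 1 and chromium 1 were 105 and 26 bp from it. The CTCF letters were found in 8.61% of all 32851 promoter windows of this length, and in 8 of the 120 members with a promoter sequence (6.67%, against 11.3% of 17492 protein-coding genes). Over all genes they were found in 8.15% of the 32116 windows that no peak reached, in 25% (140) of the 561 reached in a lone list and in 40.8% (71) of the 174 reached in 2 or more lists. A match is a description of the letters and does not show that CTCF was bound to them.

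The AHR letters GCGTG were found in 32.4% of all windows and in 29 of the 120 members with a sequence (24.2%, against 41.4% of protein-coding genes). The AHR targets Cyp1b1 and Cyp1a1 are set side by side here because CTCF peaks were called beside the first and not beside the second. The windows are chr17:79715012-79715311 (minus strand) for Cyp1b1 and chr9:57697363-57697662 (plus strand) for Cyp1a1, with GCGTG or CACGC in capitals.
Cyp1b1: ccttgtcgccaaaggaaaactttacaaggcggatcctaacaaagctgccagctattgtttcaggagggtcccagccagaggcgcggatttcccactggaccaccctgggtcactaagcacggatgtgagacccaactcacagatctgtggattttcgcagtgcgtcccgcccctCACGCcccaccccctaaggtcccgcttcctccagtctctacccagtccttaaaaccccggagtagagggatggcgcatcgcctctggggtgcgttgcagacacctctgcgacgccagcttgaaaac
Cyp1a1: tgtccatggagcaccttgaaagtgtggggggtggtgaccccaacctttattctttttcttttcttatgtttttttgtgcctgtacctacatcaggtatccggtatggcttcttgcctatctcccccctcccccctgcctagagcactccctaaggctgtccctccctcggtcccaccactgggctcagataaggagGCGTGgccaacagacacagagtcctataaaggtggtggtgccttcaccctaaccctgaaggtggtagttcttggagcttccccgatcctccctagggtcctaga

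Each held 1 match to GCGTG and 0 matches to the CTCF letters. The window of Cyp1a2 (chr9:57683606-57683905, minus strand), which is also an AHR target, held 0 matches to either and is not printed. No peak reached the Cyp1b1 or the Cyp1a1 window.

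At Cyp1b1, a P450 that oxidises polycyclic aromatic hydrocarbons and oestrogens, a site was found in untreated 1 and chromium 1. The peaks overlapped at 79715613 to 79715823 and 79715670 to 79715970 on chromosome 17, with midpoints 657 and 759 bp upstream of the gene, at score percentiles of 89.0 and 94.4. Neither number 2 list had a peak within 10 kb, and the nearest lay 10.8 kb away in untreated 2 and 22.1 kb away in chromium 2. The site was thus found in both treatments of number 1 and in neither of number 2, whose lists are shorter.

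At Cyp1a1 and Cyp1a2, the neighbouring P450 genes that respond most to AHR in liver, no list had a peak within 10 kb. The nearest to Cyp1a1 lay 59.1 kb away in chromium 1, 1960 kb in untreated 1, 2050 kb in untreated 2 and 26500 kb in chromium 2. Chromosome 9 was sparse throughout, with a peak within 10 kb of 9.83%, 7.08%, 1.75% and 0.916% of its 1201 protein-coding genes across the libraries, taken here and below in the order untreated 1, chromium 1, untreated 2, chromium 2. All 8 members on it, which include Cyp19a1 (aromatase), Cyp11a1 (the cholesterol side chain enzyme), Cyp8b1 and the alpha class transferases Gsta1, Gsta2 and Gsta4, were without a peak. Most genes of that chromosome had no peak either. Around Cyp1a1 and Cyp1a2, 8.04%, 2.68%, 2.68% and 0% of the 112 other genes within 5 Mb had a peak within 10 kb. Around Cyp1b1 the shares were 71.4%, 63.3%, 42.9% and 24.5% of 49, so a peak was common there in the number 1 lists. Cyp1b1 and Cyp1a1 thus differed in their surroundings as well as in their own peaks. Whether the first difference explains the second was not tested.

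The regulators showed little. Ahr, on chromosome 12, had no peak within 10 kb in any list, with the nearest at 104 kb in chromium 1 and 464 kb in untreated 1. Chromosome 12 was sparse as well, at 3.53% and 4.57% of its genes in untreated 1 and chromium 1. Arnt had a peak inside the gene in chromium 1 alone (95450518 to 95450814 on chromosome 3, percentile 91.3), and Ahrr 1 in chromium 1 alone (74244054 to 74244262 on chromosome 13, percentile 65.6). Por was the most occupied of the 4. Untreated 1 had a peak 872 bp beyond its 3' end (135736058 to 135736338 on chromosome 5, percentile 93.6) and another inside the gene, while chromium 1 and untreated 2 each had 1 inside the gene at percentiles of 32.1 and 15.7. None of these Por peaks overlapped, and chromium 2 had none. Por spans 65.3 kb in a peak-rich region, where 66.2%, 66.9%, 35% and 15.6% of the 160 other genes within 5 Mb had a peak.

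Gene-end peaks were found at 8 of 147 members for untreated 1 (5.44%), at 6 for chromium 1 (4.08%), at 10 for untreated 2 (6.80%) and at 9 for chromium 2 (6.12%). Over all protein-coding genes the shares were 4.31%, 4.31%, 1.63% and 0.429% in the same order. The members thus lay near the background in the number 1 lists and above it in the number 2 lists. Most of that excess lay in Ugt1a, where 9 genes have separate first exons and share the rest. Without Ugt1a, 6, 5, 2 and 2 of 138 members had a gene-end peak (4.35%, 3.62%, 1.45% and 1.45%), so that chromium 2 still lay above its background of 0.429%, on 2 genes (Cyp21a1 and Gstm5). Counted by locus, 6, 6, 3 and 3 of 61 loci did. In at least 1 list, 19 members had one (12.9%, against 8.56% of all protein-coding genes), and 11 had one in 2 or more lists (7.48%, against 1.75%). Of those 11, 7 were Ugt1a genes, and the others were Cyp27a1, Cyp21a1, Cyp1b1 and Gstm6.

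**Figure D1:**
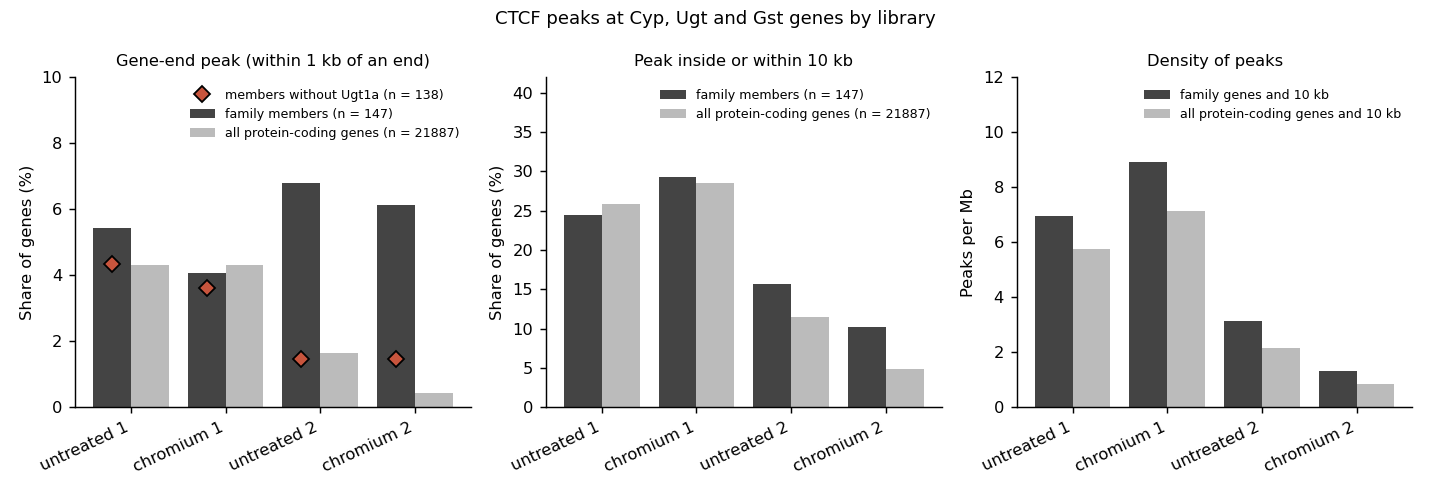
Share of genes with a CTCF peak at a gene end (left, %) or inside or within 10 kb (middle, %), and peaks per Mb of gene territory (right), for the 147 members (dark bars) and all 21887 protein-coding genes (light bars) in each library, with diamonds for the 138 members outside Ugt1a. The gene-end bars of the number 2 libraries, 6.80% and 6.12%, fall to 1.45% when Ugt1a is left out.

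The gene-end share averaged 6.12% ± 0.962 (SD, n = 2) without chromate and 5.10% ± 1.44 (SD, n = 2) with it, a difference, chromium minus untreated, of -1.02 percentage points (two-sided exact permutation test, p = 0.667). No comparison of 2 libraries with 2 can give a p under 0.333. Without chromium 1 the difference was 0, and with a window of 500 bp it was 1.02 points in the other direction. The difference was smaller than the spread between chromium libraries. It had the same sign in both pairs of equal number (-1.36 and -0.68 points), but this did not hold under other settings. With lists of equal length pair 2 went the other way, at 5.44% in untreated 2 and 6.12% in chromium 2. With the 500 bp window it did so too (1.36% and 4.76%). Among peaks at or above the median score of their list, both libraries of pair 2 stood at 5.44%.

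The Ugt1a genes join glucuronic acid to bilirubin, phenols and drugs, and 7 of the 9 end at the same base, 88220002 on chromosome 1. Untreated 2 had a peak at 88220569 to 88220861, 713 bp beyond that shared end (percentile 81.6), and chromium 2 at 88220275 to 88220489, 380 bp beyond it (percentile 70.1). The midpoints were 333 bp apart and the peaks did not overlap. Neither number 1 list had a peak within 1 kb of the shared end. Chromium 1 had a peak of percentile 95.7 farther out, 9387 bp beyond the end. Inside the locus, untreated 1 had 3 peaks, among them 1 at 88069827 to 88070091, within 1 kb of the lower end of Ugt1a9 (percentile 85.3), and 1 at 88094223 to 88094580, within 1 kb of that of Ugt1a7c (71.9). Untreated 2 had 1 within 1 kb of the lower end of Ugt1a6b (percentile 21.2). Chromium 1 had 2 inside Ugt1a6b (percentiles 32.1 and 71.6) and 1 in Ugt1a1, the bilirubin enzyme, 526 bp from its start (percentile 11.2). The 10 peaks of the locus fell on 10 separate sites.

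By the wider measure, a peak inside the gene or within 10 kb, 36 members had one for untreated 1 (24.5%, against 25.8% of all protein-coding genes), 43 for chromium 1 (29.3%, against 28.6%), 23 for untreated 2 (15.6%, against 11.4%) and 15 for chromium 2 (10.2%, against 4.86%). Leaving out Ugt1a, the numbers were 30, 34, 14 and 6. The 15 and 23 genes of the number 2 lists include all 9 Ugt1a genes. In at least 1 list, 54 members had one (36.7%, against 41.4%), and 6 had one in all 4 lists (4.08%, against 1.64%), all of them Ugt1a genes. By family, 16, 22, 8 and 4 of the 99 Cyp genes had one, 9, 11, 11 and 10 of the 22 Ugt genes, and 10, 7, 3 and 1 of the 22 Gst genes. Members were of about the usual length, with a median of 19.4 kb against 17.2 kb for all protein-coding genes. If each member had the share of its own chromosome, 29.8%, 33.1%, 14.1% and 6.17% would have a peak, so the number 1 lists lay below that and the number 2 lists above it. Without Ugt1a the shares were 21.7%, 24.6%, 10.1% and 4.35% of 138 members. Beside those of all protein-coding genes, they were lower in the number 1 lists and close in the number 2 lists.

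The mean was 20.1% ± 6.25 (SD, n = 2) without chromate and 19.7% ± 13.5 (SD, n = 2) with it, and these differed by -0.34 points (two-sided exact permutation test, p = 1). The pairs went in opposite directions, with 4.76 points more in chromium 1 than in untreated 1 and -5.44 points in chromium 2 relative to untreated 2. By locus, 22, 25, 13 and 8 of 61 loci held a peak (36.1%, 41.0%, 21.3% and 13.1%), and the treatments again differed by less than the spread (difference in means -1.64 points, two-sided exact permutation test, p = 1).

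List length was then taken into account. With each list cut to its 1905 highest scores, 7.48%, 10.2%, 9.52% and 10.2% of members had a peak within 10 kb (two-sided exact permutation test, p = 0.333). The Ugt1a genes are among these members. The same share over all protein-coding genes is not given for the cut lists, so these values compare libraries and not members with the background. Of its own peaks, untreated 1 had 42 within 10 kb of members (0.359%, exact 95% interval 0.259 to 0.485), chromium 1 had 54 (0.363%, 0.273 to 0.473), untreated 2 had 19 (0.423%, 0.255 to 0.659) and chromium 2 had 8 (0.42%, 0.181 to 0.826). These Clopper-Pearson intervals cover counting error only and overlapped throughout. Untreated libraries averaged 0.391% ± 0.0452 (SD, n = 2) and chromium libraries 0.391% ± 0.0404 (SD, n = 2) (two-sided exact permutation test, p = 1). Within 25 kb of members the shares were 0.538%, 0.605%, 0.512% and 0.682%, higher in the chromium library of both pairs by a mean of 0.119 points (exact permutation p = 0.333). In the 6.05 Mb of member genes and their 10 kb surroundings, the density was 6.94, 8.92, 3.14 and 1.32 peaks per Mb. Around all protein-coding genes it was 5.74, 7.14, 2.15 and 0.829 peaks per Mb.

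The peaks near members lay mostly away from gene ends. Of the 42 from untreated 1, 8 were at a member gene end, 14 inside genes and 20 outside. Chromium 1 had 6, 25 and 23 of its 54 in these places, untreated 2 had 5, 9 and 5 of 19, and chromium 2 had 3, 2 and 3 of 8. Their median score percentile was 58.0, 53.1, 35.3 and 37.6 in the same order of libraries, where 50 is the middle of a list. Peaks at or above the 90th percentile numbered 5, 7, 3 and 1.

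**Figure D2:**
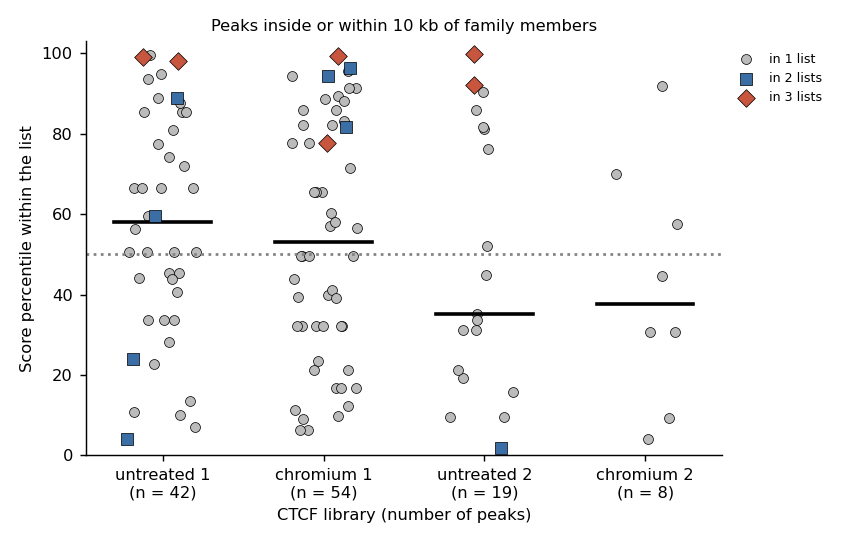
Score percentile within its own list (vertical axis) of each peak inside or within 10 kb of a member, by library, with bars at the medians of 58.0, 53.1, 35.3 and 37.6 and marker shape for the number of lists that share the site. The sites found in 3 lists, both at Cyp2w1, lie at percentiles of 77.8 or more.

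These peaks merged into 115 sites when peaks of different lists that overlapped by at least 1 bp were joined. Of these, 109 were found in a lone list, 4 in 2 lists, 2 in 3 lists (1.74%, against 0.979% of the sites near any protein-coding gene) and 0 in all 4. Sites in 2 or more lists were thus 6 (5.22%), against 5.3% of the 19210 sites near any protein-coding gene. Untreated 1 and chromium 1 shared 5 member sites, untreated 1 and untreated 2 shared 3, chromium 1 and untreated 2 shared 2, and chromium 2 shared 0 with any list.

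Both sites found in 3 lists lay at Cyp2w1, an orphan P450 of fetal gut and tumours. The stronger, at 139364149 to 139364561 on chromosome 5, lay 4700 to 4767 bp beyond the 3' end of Cyp2w1, inside the neighbouring gene 3110082I17Rik. Its percentiles were 99.2 in untreated 1, 99.2 in chromium 1 and 99.8 in untreated 2. The other, at 139355235 to 139355619, lay inside Cyp2w1, 2747 to 2861 bp from its start, at percentiles of 98.2, 77.8 and 92.2. Chromium 2 had no peak within 10 kb and its nearest lay 18.7 kb away. With 6 peaks in chromium 1, 3 in untreated 1 and 2 in untreated 2, Cyp2w1 had 25.9 sites per 100 kb of its span and surroundings, the highest density of the 61 loci. The region was peak-rich, with a peak near 67.0% of the 194 other protein-coding genes within 5 Mb for untreated 1, 68.6% for chromium 1, 39.2% for untreated 2 and 17.0% for chromium 2.

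Of the 4 sites in 2 lists, 3 were shared by the number 1 lists, across treatment. Besides the Cyp1b1 site, these were the Parl site, 5829 and 5908 bp from Cyp2ab1 (percentile 59.5 in untreated 1 and 96.4 in chromium 1), and a site upstream of Cyp27a1, the mitochondrial sterol 27-hydroxylase of bile acid synthesis. The Cyp27a1 peaks spanned 74712087 to 74712295 and 74712068 to 74712289 on chromosome 1, with midpoints 957 and 970 bp before the gene, at percentiles of 24.0 and 81.7. Untreated 2 had 2 other Cyp27a1 peaks, inside the gene, at percentiles of 19.3 and 81.2.

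The remaining site in 2 lists was the only one with the pattern of loss, present in both untreated and neither chromium library. It lay between Gstp2 and Gstp3, genes of pi class transferases that are abundant in liver and tumours, at 4048039 to 4048277 on chromosome 19, 5937 and 5944 bp from Gstp2. Its percentiles were 4.03 in untreated 1 and 1.88 in untreated 2, near the bottom of both lists, and chromium 1 had a separate peak with a midpoint 1285 bp away. It made up 1 of 115 member sites, against 0.729% of the sites near any protein-coding gene. The opposite pattern was found at 0 member sites, against 0.0521%. A list of peaks at or above the median score held 0 lost sites near members.

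Counted by gene, where peaks need not coincide, the pattern of a gene-end peak in both untreated and neither chromium list was found at 0 members (against 0.274% of protein-coding genes), and the opposite at 1 (0.68%, against 0.0274%). This was Cyp21a1, the steroid 21-hydroxylase of the adrenal gland. The peak of chromium 1 lay 601 bp beyond the higher-coordinate end (34804923 to 34805131 on chromosome 17, percentile 16.8) and that of chromium 2 lay inside the gene (34802137 to 34802379, percentile 91.8), with 2769 bp between the midpoints. By the wider measure Cyp4f13 was the member with peaks in both untreated lists only, at 1687 and 6568 bp from the gene and percentiles of 50.7 and 31.3 (1 of 147, 0.68%, against 1.26%). Cyp21a1 was the 1 with the opposite pattern (0.68%, against 0.521%). These patterns rest on separate peaks and not on a shared site.

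The other gene-end peaks were each called in a lone list. Gstt1, a theta class transferase, had 1 in untreated 1, 984 bp upstream (percentile 66.4). Cyp4f37 had 1 in chromium 1, 775 bp from its end (49.6), and Cyp3a57 1 in untreated 2, 339 bp beyond its end (90.3). Ugt3a2 had 2 in untreated 2, at both ends of the gene, with percentiles of 9.50 and 9.41. Gstm5 had 1 in chromium 2 (9.37). Near the 1 kb limit were those of Gstt1 at 984 bp and Cyp27a1 at 957 and 970 bp on the inside, and one of Cyp4f37 at 1040 bp in untreated 1 and one of Cyp2w1 at 1123 bp in chromium 1 on the outside.

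By locus, 32 of 61 held a peak in at least 1 list, and 22 of them in 2 or more lists. Only 5 of those 22 had a site that lists shared, so at the other 17 the lists had peaks in the same locus at separate positions. Separate positions were not particular to the members, as only 5.3% of the sites near any protein-coding gene were in 2 or more lists. Untreated 1 and chromium 1 both had peaks at 16 loci, 72.7% of the 22 of untreated 1 and 64% of the 25 of chromium 1. Untreated 1 and untreated 2 both had peaks at 10 loci, 45.5% and 76.9% of theirs. No such counts by locus are given for other genes, so these shares have no background beside them.

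**Figure D3:**
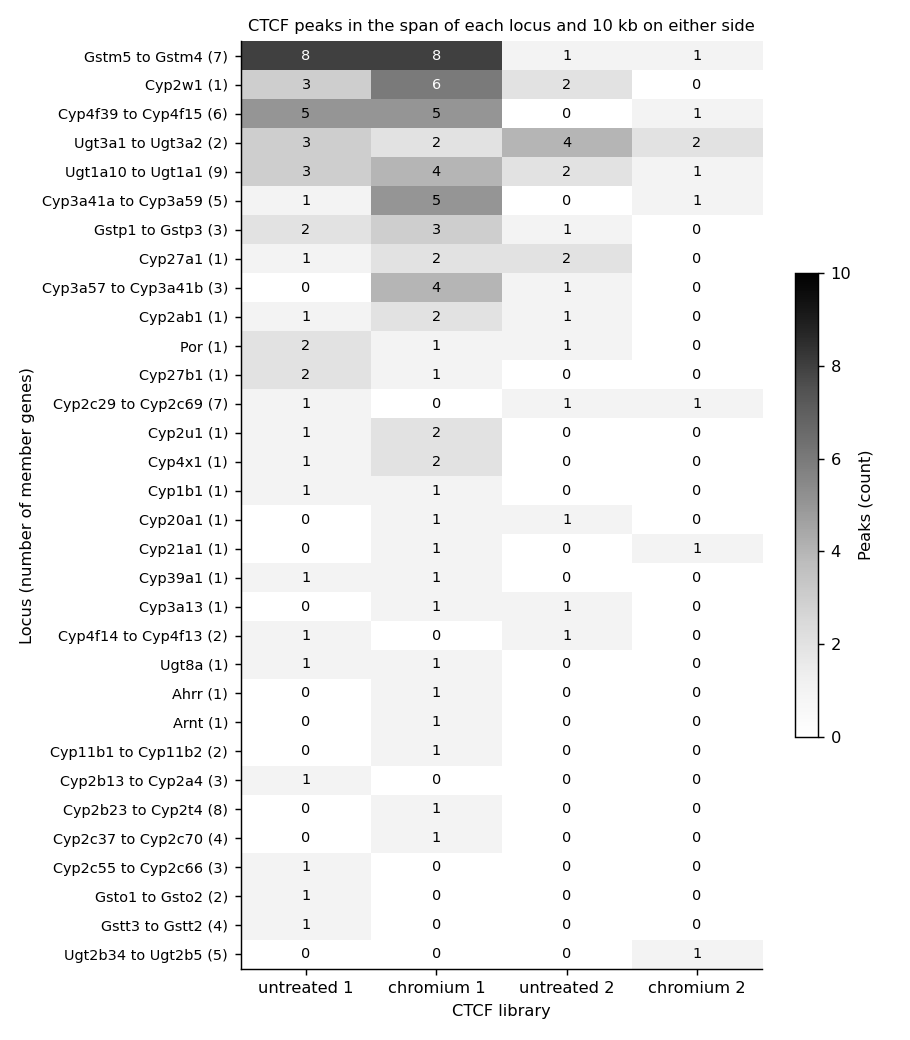
Number of CTCF peaks (shade and digits) in each of the 32 loci with a peak, counted over the whole locus and 10 kb on either side, by library, with the number of member genes in brackets. The Gstm locus has 8 peaks in each number 1 library and 1 in each number 2 library, and 3 loci have a peak in all 4 libraries.

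The Gstm locus, 7 mu class genes over 149 kb of chromosome 3, held the most peaks of the 61 loci, with 8, 8, 1 and 1. The 18 peaks fell on 18 sites. The closest midpoints of untreated 1 and chromium 1 were 871 bp apart, at the 3' end of Gstm6. There untreated 1 had a peak 7 bp from the end (percentile 85.3) and chromium 1 had one 864 bp inside it (41.2). Gstm1 had the promoter peak of untreated 1 shown above, 167 bp upstream (percentile 40.6), and a chromium 1 peak inside the gene, 1882 bp from the start (88.3). Gstm2 and Gstm3 had no peak within 10 kb in any list. The region was rich in peaks, with 66.7% and 67.6% of the 102 other genes within 5 Mb near a peak in untreated 1 and chromium 1, and 42.2% and 17.6% in untreated 2 and chromium 2.

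The Ugt3a locus of chromosome 15, whose enzymes use sugars other than glucuronic acid, had peaks in all 4 lists, with 3, 2, 4 and 2. These were 11 separate sites, with percentiles from 4.07 in chromium 2 to 89.5 in chromium 1. Of the 52 other genes within 5 Mb, 75.0%, 90.4%, 76.9% and 42.3% had a peak in the same order. Ugt3a1 and Ugt3a2 thus stood among genes that mostly had one in every list but chromium 2. The Gstm, Ugt1a and Ugt3a loci were the 3 with peaks in every list.

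The Cyp4f locus of 6 genes on chromosome 17, which encodes hydroxylases of fatty acids and leukotrienes, had 5 peaks in each number 1 list, 0 in untreated 2 and 1 in chromium 2, on 11 sites. The chromium 2 peak lay 544 bp from one of untreated 1, beyond Cyp4f15. Cyp4f39 had the strongest, at 32461142 to 32461371 in untreated 1 (percentile 89.0), and Cyp4f16 had none within 10 kb.

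**Figure D4:**
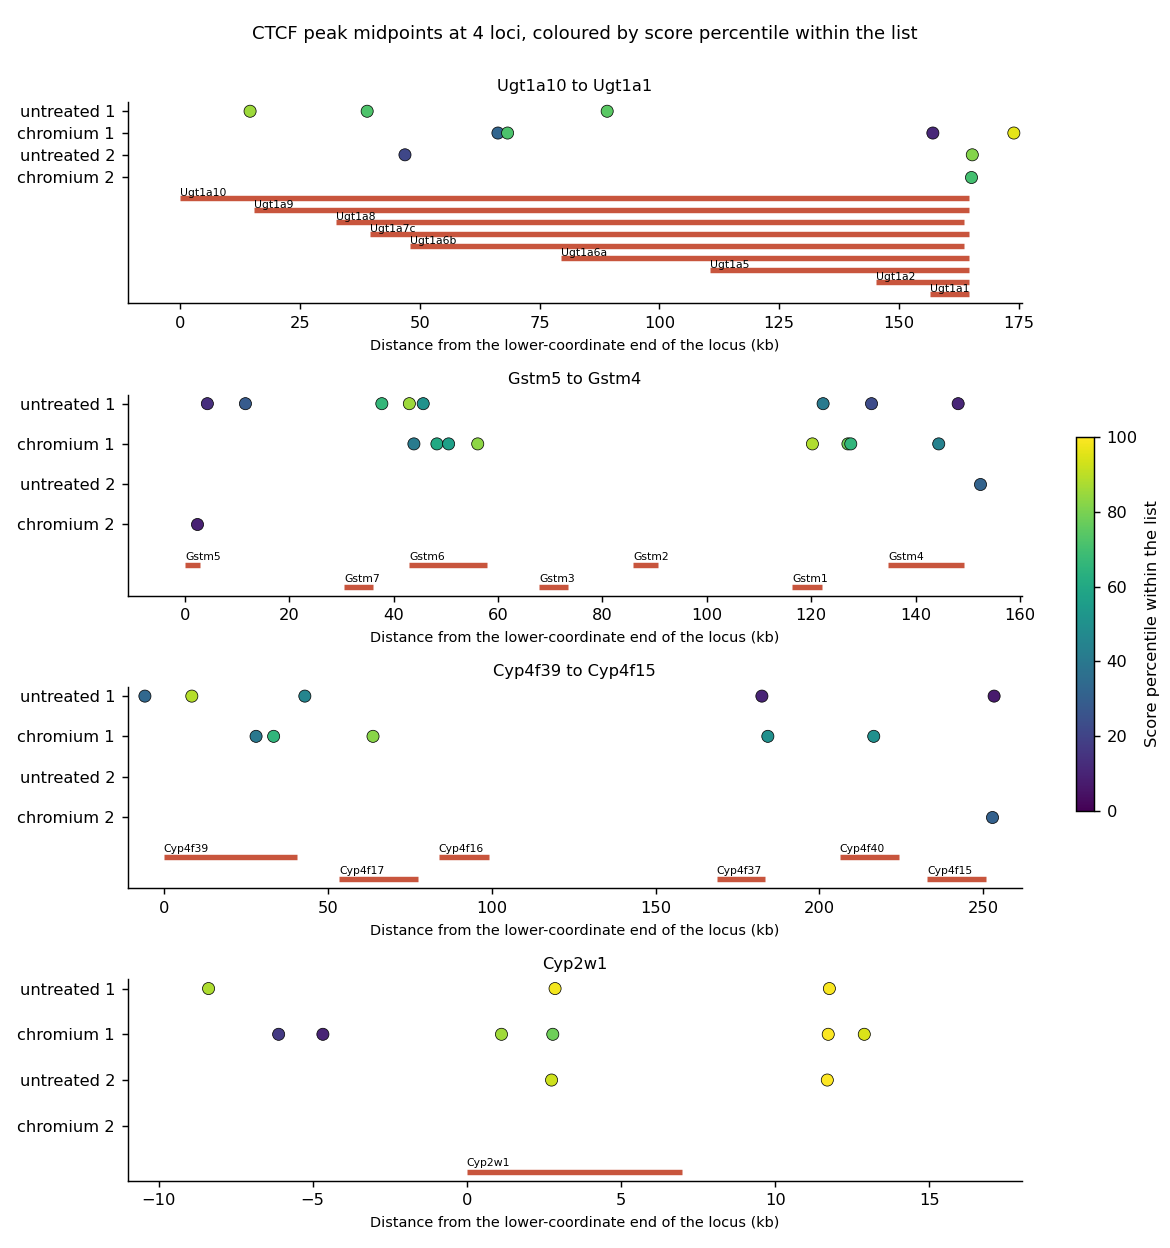
Midpoints of CTCF peaks at the Ugt1a, Gstm, Cyp4f and Cyp2w1 loci by library, as the distance in kb from the lower-coordinate end of the locus, coloured by the score percentile within the list, with red bars for the member genes. Peaks line up between libraries at Cyp2w1 (3 libraries at each of 2 positions), while no site at the other 3 loci is shared.

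The Cyp3a genes, whose human counterparts oxidise many drugs, had more peaks in chromium 1 than in untreated 1, a difference of 1 pair with no test. The 8 genes from Cyp3a57 to Cyp3a59 form 2 loci, which held 9 peaks in chromium 1 (4 and 5) and 1 in each other list. These counts cover the whole span of each locus, and some of the chromium 1 peaks lay over 10 kb from any member. Of the 9 Cyp3a members, 6 had a peak within 10 kb in chromium 1 and 1 in untreated 1, but 1 in chromium 2 against 2 in untreated 2. Pair 2 thus did not show the same. In the usual order of libraries the shares were 11.1%, 66.7%, 22.2% and 11.1%, against 25.8%, 28.6%, 11.4% and 4.86% of all protein-coding genes. Cyp3a44 had peaks in untreated 1 (percentile 85.3) and chromium 1 (58.0) with midpoints 471 bp apart, and Cyp3a59 had 1 of percentile 88.7 in chromium 1. Cyp3a11, the main Cyp3a enzyme of mouse liver, and Cyp3a25 had none in any list. Around the locus from Cyp3a41a to Cyp3a59, 64.7%, 72.4%, 53.4% and 33.6% of the 116 other genes within 5 Mb had a peak.

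Several of the largest clusters had no peak. Of the 11 loci with 5 or more members, 4 had 0 peaks in all lists, and they held 25 members over 1280 kb. These were the Cyp4a and Cyp4b1 locus of 9 genes on chromosome 4, which encodes fatty acid hydroxylases induced by PPARA ligands, 5 Cyp2j genes, 6 Cyp2d genes and 5 Ugt2 genes from Ugt2b37 to Ugt2a2. The other Ugt2 locus, from Ugt2b34 to Ugt2b5, had 1 peak, in chromium 2, which lay over 10 kb from any member. The 8 genes from Cyp2b23 to Cyp2t4 had 1 peak, in chromium 1, likewise over 10 kb from any member. Over the 48 Cyp2 genes, 6, 4, 3 and 1 had a peak within 10 kb (12.5%, 8.33%, 6.25% and 2.08%, against 25.8%, 28.6%, 11.4% and 4.86% of all protein-coding genes), and 0 had one at a gene end (against 4.31%, 4.31%, 1.63% and 0.429%).

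The surroundings of these clusters differed. Around the Ugt2 locus from Ugt2b37, 5.06% of the 79 other genes within 5 Mb had a peak in untreated 1 and 5.06% in chromium 1, so it lay in a sparse region. Around the Cyp2j locus it was 13.5% and 5.41% of 37, and around the Cyp4a locus 27.7% and 28.5% of 130. Around the Cyp2d locus on chromosome 15, 19.9% and 18.8% of the 176 other genes had a peak. The Cyp2c genes on chromosome 19, a major drug-oxidising group, fell into several loci. The largest of these held 7 genes over 600 kb, from Cyp2c29 to Cyp2c69. It had 1 peak in each of untreated 1, untreated 2 and chromium 2 and 0 in chromium 1. Of the 106 other genes within 5 Mb, 40.6%, 48.1%, 15.1% and 2.83% had a peak. Outside that locus, Cyp2c55 had a peak in untreated 1 (percentile 50.7) and Cyp2c70 had 1 in chromium 1 (percentile 6.31). Genes outside clusters had a peak within 10 kb at 29.4%, 44.1%, 17.6% and 2.94% of 34, and clustered genes at 23.0%, 24.8%, 15% and 12.4% of 113, beside 25.8%, 28.6%, 11.4% and 4.86% of all protein-coding genes. The 9 Ugt1a genes were among the 17 and 14 clustered genes of the number 2 lists. Without Ugt1a, 20, 19, 8 and 5 of 104 clustered genes had a peak (19.2%, 18.3%, 7.69% and 4.81%). These lay below the share of all protein-coding genes in every list but chromium 2, which was at its background of 4.86%.

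Several other members had peaks high in a list that did not coincide with any other. Gsto2, an omega class transferase that reduces dehydroascorbate, had a peak at 47882571 to 47882860 on chromosome 19 with the percentile 99.6 in untreated 1 and none in the other lists. Cyp27b1, which activates vitamin D, had untreated 1 peaks of percentiles 94.9 and 77.4 and a chromium 1 peak of 32.1 on either side of the gene. Cyp2u1, a fatty acid hydroxylase, had chromium 1 peaks of 91.3 and 82.1 and an untreated 1 peak of 66.4. Liver genes with no peak within 10 kb in any list included Cyp2e1, the ethanol-inducible P450, and Cyp7a1, the rate-limiting enzyme of bile acid synthesis.

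A list of 72 other genes of xenobiotic metabolism was read in the same way, and all 72 were found in the annotation. It held AHR and NRF2 pathway genes, liver transcription factors, other conjugating enzymes, transporters, and genes of electron transfer and heme supply. Of these, 7, 3, 3 and 0 had a gene-end peak (9.72%, 4.17%, 4.17% and 0%). Over all protein-coding genes the gene-end shares were 4.31%, 4.31%, 1.63% and 0.429%. Chromium 1 was thus close to its background, and 0 of 72 genes in chromium 2 is close to a share of 0.429%. A peak inside or within 10 kb was found at 26 (36.1%), 28 (38.9%), 14 (19.4%) and 7 (9.72%). These were above the shares over all protein-coding genes in each list (25.8%, 28.6%, 11.4% and 4.86%). The 3 gene-end peaks of Cebpb, a liver transcription factor, overlapped in untreated 1, chromium 1 and untreated 2, at percentiles of 99.0, 99.8 and 38.0. Cebpb, Hnf4a, Sult1a1 and Nfe2l2, which encodes NRF2, had a peak within 10 kb in all 4 lists. Over all protein-coding genes, 1.64% had one in all 4 lists. Cebpb lies in a peak-rich part of chromosome 2, within 5 Mb of the member Cyp24a1. Of the 84 other genes within 5 Mb of Cyp24a1, 57.1%, 60.7%, 44% and 22.6% had a peak within 10 kb. The surroundings of Hnf4a, Sult1a1 and Nfe2l2 are not given.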

How the data were processed

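The deposited files hold the position and score of every CTCF peak. Per the submitters' processing notes the authors used Bowtie and MACS2 on build mm10. The sources used here give no versions, thresholds or score scale. By the peak names, libraries were called singly, each against an input. The inputs were not analysed here.

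Positions were read as 1-based coordinates on chromosomes 1 to 19, X and Y, which left out 14 mitochondrial peaks of untreated 2. Gene positions came from RefSeq records of GRCm38.p6, and strand came from the RefSeq promoter table, which covers 120 members. Sample titles gave the group and replicate number. An exact permutation test, two-sided, compared the 2 untreated with the 2 chromium values. The named genes were all members with a gene-end peak or a site in 2 or more lists, the AHR genes and targets, every locus of 5 or more genes and the 6 others with the most sites, and other xenobiotic genes with gene-end peaks in 2 or more lists. A result that this rule would name is not reported here. Further genes were named after their values were seen, namely Gsto2, Cyp27b1, Cyp2u1, Cyp4f13, Cyp2e1, Cyp7a1, Nfe2l2, Hnf4a and Sult1a1. Also named outside the rule were Cyp2c55, Cyp2c70, Cyp24a1 and the chromosome 9 members Cyp19a1, Cyp11a1, Cyp8b1, Gsta1, Gsta2 and Gsta4. The 5 Mb surroundings and the motif letters were also chosen after the data were seen. The members and lists were chosen with earlier results of these data known.

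Alternatives were other windows, distances, score limits and list lengths, and leaving out each library. The assignment of peaks to genes and the merging of sites were tested on simulated data. Python 3.11.15, numpy 2.4.6, pandas 2.3.3, scipy 1.17.1 and matplotlib 3.10.9 were used.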

Additional observations from a re-analysis of the deposited data

How the results depend on the processing

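No setting brought a comparison by treatment past 0.05, which 2 libraries against 2 cannot reach. The difference in the gene-end share changed sign with a 500 bp window (1.02 points) and ranged from -2.04 to 0 with a library left out. It was -0.362 points without Ugt1a and 0 by locus, both added after the data were seen. The 10 kb share of genes changed sign among peaks at or above the median score (0.68 points), with lists of equal length (1.70), at 25 kb (2.38), without untreated 1 (4.08) and without chromium 2 (9.18), from -9.86 to 9.18 with a library left out. The share of loci changed sign with lists of equal length (1.64), at 25 kb (4.92), without untreated 1 (5.74) and without chromium 2 (12.3), from -15.6 to 12.3. The share of peaks changed sign among peaks at or above the median score (-0.037 points), at 5 kb (-0.00597), without untreated 1 (-0.0313) and without chromium 2 (-0.0278), from -0.0313 to 0.0327 with a library left out. At 25 kb it was 0.119 points (exact permutation p = 0.333). The cause of these changes was not tested. The count of 1 lost site became 0 at or above the median score and 2 at 25 kb, and ranged from 1 to 37 with a library left out, when fewer lists decide the pattern (17 without untreated 1, 37 without untreated 2, 3 without chromium 1). The count of 0 gained sites ranged from 0 to 49 (8 without chromium 1, 49 without chromium 2). With the replicate number as a block the differences were the same, -1.02, -0.34, -1.64 and 0.000687 points, with exact p-values of 0.5 or 1. The numbers are tied to a shared input and not, in the labels, to a culture or day.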
